A study of Mus musculus with 12 samples.

Results

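The regions described here are sites of open chromatin at the ends of long noncoding RNA (lncRNA) genes in mouse dorsal root ganglia. A summit, the position of highest signal in an ATAC-seq peak, was taken as a member when it lay on chromosomes 1 to 19 of mm10 within 1 kb of either end of a RefSeq lncRNA gene and more than 5 kb from every end of a protein-coding gene. The rule used positions only and no score. It found 3778 of the 155267 summits in the 4 deposited lists, at 1647 of the 12408 lncRNA genes on these chromosomes. A member belonged to more than 1 lncRNA gene in 118 cases.

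The study compared 4 groups of 3 ATAC-seq libraries each, and the files hold 1 summit list per group. The groups were Silc1-/- mice with an injured sciatic nerve, Silc1-/- mice after a sham operation, wild-type mice (Silc1+/+) with the same injury, and wild-type mice after a sham operation. Injury was a crush of the sciatic nerve at mid-thigh, and each library was made from 6 lumbar ganglia (L4-L6). Silc1 is itself a lncRNA gene, and the labels name no Cre driver or cell type for its loss. Age, the time from injury to dissection, the kind of Silc1 mutation and the sex and strain of each group are not given in the labels, which name purchased C57black6 Ola HSD males and other strains bred on site. Whole ganglia hold sensory neurons, satellite glia, Schwann cells, vascular cells and immune cells, so a change in cell makeup and a change within cells cannot be told apart.

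LncRNAs are long transcripts that encode no protein, and many are capped and spliced like messenger RNAs. Some act in the nucleus on neighbouring genes, some bind proteins or microRNAs, and some serve as hosts from which microRNAs or small nucleolar RNAs are cut. ATAC-seq uses a transposase that inserts sequencing adapters into DNA not covered by nucleosomes, so active promoters and enhancers give peaks. A summit at a lncRNA end can be the promoter of the lncRNA or an enhancer that its transcript crosses, and position alone does not tell these apart.

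Promoter windows of 6 lncRNA genes and the microRNA host Mirc35hg are shown, since the results turn on them. Each is 300 bases from RefSeq (GRCm38.p6, the same build as mm10), runs 5′ to 3′ on the gene's own strand and contains the annotated start. Capitals mark CG dinucleotides, except in Kcnq1ot1, where they mark CCAAT. D130051D11Rik, Mir22hg, Kcnq1ot1 and Mirc35hg had summits at the start in all 4 lists. Gm40716 had none in the Silc1-/- injured list, Gm39056 none in the wild-type sham list, and Gm12708 had summits in the wild-type lists alone.
D130051D11Rik (chr15:85634346-85634645, plus strand): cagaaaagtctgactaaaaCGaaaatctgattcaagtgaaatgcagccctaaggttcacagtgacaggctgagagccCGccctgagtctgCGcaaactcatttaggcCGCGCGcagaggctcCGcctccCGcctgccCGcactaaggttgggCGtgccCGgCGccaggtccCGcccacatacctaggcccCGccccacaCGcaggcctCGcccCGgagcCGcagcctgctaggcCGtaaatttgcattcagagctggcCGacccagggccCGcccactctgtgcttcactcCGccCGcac
Mir22hg (chr11:75461289-75461588, plus strand): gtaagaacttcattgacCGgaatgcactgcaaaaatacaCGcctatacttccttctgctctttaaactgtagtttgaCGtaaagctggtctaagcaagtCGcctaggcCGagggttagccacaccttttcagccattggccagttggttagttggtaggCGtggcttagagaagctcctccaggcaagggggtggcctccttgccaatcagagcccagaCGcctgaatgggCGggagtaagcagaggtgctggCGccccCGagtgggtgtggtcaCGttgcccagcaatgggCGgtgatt
Kcnq1ot1 (chr7:143296498-143296797, minus strand): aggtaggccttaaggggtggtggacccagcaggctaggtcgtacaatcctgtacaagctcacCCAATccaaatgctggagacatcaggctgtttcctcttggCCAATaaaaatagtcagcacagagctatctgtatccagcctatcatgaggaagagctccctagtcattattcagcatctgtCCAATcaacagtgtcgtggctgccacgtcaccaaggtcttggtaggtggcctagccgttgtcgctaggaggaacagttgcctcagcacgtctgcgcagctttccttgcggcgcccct
Mirc35hg (chr6:30174076-30174375, minus strand): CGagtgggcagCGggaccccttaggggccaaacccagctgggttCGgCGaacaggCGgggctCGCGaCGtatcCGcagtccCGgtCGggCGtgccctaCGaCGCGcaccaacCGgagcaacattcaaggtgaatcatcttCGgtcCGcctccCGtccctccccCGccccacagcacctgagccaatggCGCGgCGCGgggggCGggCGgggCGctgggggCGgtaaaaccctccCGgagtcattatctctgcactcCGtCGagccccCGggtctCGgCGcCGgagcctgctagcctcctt
Gm40716 (chr10:80475331-80475630, minus strand): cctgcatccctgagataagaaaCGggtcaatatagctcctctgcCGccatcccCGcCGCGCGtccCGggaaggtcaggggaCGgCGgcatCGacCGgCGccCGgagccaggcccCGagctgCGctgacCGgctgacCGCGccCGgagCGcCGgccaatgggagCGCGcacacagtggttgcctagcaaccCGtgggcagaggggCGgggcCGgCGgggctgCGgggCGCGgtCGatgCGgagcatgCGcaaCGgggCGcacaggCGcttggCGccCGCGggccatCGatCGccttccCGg
Gm39056 (chr7:99500214-99500513, plus strand): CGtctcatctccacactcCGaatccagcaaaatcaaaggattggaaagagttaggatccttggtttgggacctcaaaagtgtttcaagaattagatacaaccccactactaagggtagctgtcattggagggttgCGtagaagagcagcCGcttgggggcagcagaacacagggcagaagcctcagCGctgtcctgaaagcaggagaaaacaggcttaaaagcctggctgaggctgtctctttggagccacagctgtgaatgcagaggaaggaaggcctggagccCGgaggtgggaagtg
Gm12708 (chr4:95193054-95193353, plus strand): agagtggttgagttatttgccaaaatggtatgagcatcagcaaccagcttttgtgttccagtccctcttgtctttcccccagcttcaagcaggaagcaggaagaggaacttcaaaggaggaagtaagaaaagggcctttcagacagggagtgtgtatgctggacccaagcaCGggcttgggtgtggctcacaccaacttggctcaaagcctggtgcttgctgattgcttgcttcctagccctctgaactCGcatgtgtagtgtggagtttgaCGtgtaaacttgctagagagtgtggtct

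Counted from 1 at the 5′ end of each window, the highest-scoring summit of D130051D11Rik lay at base 252 in Silc1-/- injured, 267 in Silc1-/- sham, 233 in wild-type injured and 277 in wild-type sham. For Mir22hg the bases were 190, 185, 190 and 185 in the same order of lists, and for Kcnq1ot1 they were 225, 147, 221 and 135. The window of Gm40716 held 42 CG dinucleotides and 74.0% GC, that of Mirc35hg 35 and 70.3%, and that of D130051D11Rik 23 and 63.7%. The windows of Mir22hg (12 CG dinucleotides), Gm39056 (6) and Gm12708 (3) were poorer in CG. The 3 CCAAT boxes of Kcnq1ot1 are letters found in 38.0% of all 27025 promoter windows of the table, read on either strand.

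Several member genes host microRNAs. Mature forms from hosts with a summit in every list, with relatives from other member genes, are given with the seed (bases 2 to 8) in capitals. The seed is the part that pairs with target messenger RNAs. Sequences were matched for 41 of the 47 microRNA genes within 1 kb of a member lncRNA gene.
Mirc35hg hosts the cluster of miR-183, miR-96 and miR-182, which is known for its expression in sensory neurons and sense organs.
miR-183-5p: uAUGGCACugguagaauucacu
miR-96-5p: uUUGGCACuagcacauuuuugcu
miR-182-5p: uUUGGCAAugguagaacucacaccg
Mir22hg hosts miR-22.
miR-22-3p: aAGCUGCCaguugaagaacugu
Dleu2 hosts miR-15a and miR-16, which share the seed AGCAGCA with miR-195b. The last lies inside Gm33458 but on the opposite strand, so Gm33458 is not its host.
miR-15a-5p: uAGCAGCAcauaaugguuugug
miR-16-5p: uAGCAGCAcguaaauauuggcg
miR-195b: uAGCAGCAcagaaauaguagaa
A330023F24Rik hosts miR-29b and miR-29c, which share the seed AGCACCA.
miR-29b-3p: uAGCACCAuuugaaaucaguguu
miR-29c-3p: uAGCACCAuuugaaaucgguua
E130102H24Rik hosts miR-101a, known for targeting the histone methyltransferase gene Ezh2.
miR-101a-3p: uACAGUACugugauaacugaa
The neuronal miR-9 has hosts that were not in every list.
miR-9-5p: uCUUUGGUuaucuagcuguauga

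Per list, members numbered 750 of 35815 summits in Silc1-/- injured, 1242 of 48332 in Silc1-/- sham, 1168 of 43841 in wild-type injured and 618 of 27279 in wild-type sham. Scaled to length this was 20.9 per 1000 summits (95% Wilson interval 19.5 to 22.5) in Silc1-/- injured, 25.7 (24.3 to 27.1) in Silc1-/- sham, 26.6 (25.2 to 28.2) in wild-type injured and 22.7 (21.0 to 24.5) in wild-type sham. Wild-type injured and Silc1-/- sham, the longer lists, had the higher scaled counts, and their intervals overlapped. With 1 list per group there is no spread between animals and no test between groups, and these intervals cover counting error only. Sequencing depth is unknown, since the files hold no read totals.

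The ratio of scaled counts, injured over sham, was 0.815 (0.745 to 0.891) in Silc1-/- and 1.18 (1.07 to 1.29) in wild type. Silc1-/- over wild type, it was 0.786 (0.718 to 0.861) after injury and 1.13 (1.03 to 1.25) after sham operation. The choice of denominator turned some of these. Among summits over 5 kb from coding gene ends, called distal here, members made up 3.67% (3.42 to 3.94) in Silc1-/- injured, 4.21% (3.99 to 4.44) in Silc1-/- sham, 4.71% (4.45 to 4.98) in wild-type injured and 4.84% (4.49 to 5.23) in wild-type sham. On that scale injured over sham was 0.872 (0.798 to 0.954) in Silc1-/- and 0.972 (0.884 to 1.07) in wild type, and Silc1-/- over wild type was 0.780 (0.713 to 0.853) after injury and 0.869 (0.791 to 0.955) after sham operation. The low value of the Silc1-/- injured list stood under both denominators, and the higher values of wild-type injured over wild-type sham and of Silc1-/- sham over wild-type sham did not. With the lists also trimmed to equal length, a setting chosen after seeing the data, the distal scale gave 1.14 (1.03 to 1.27) for wild-type injured over wild-type sham and 1.02 (0.916 to 1.13) for Silc1-/- sham over wild-type sham.

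**Figure D1:**
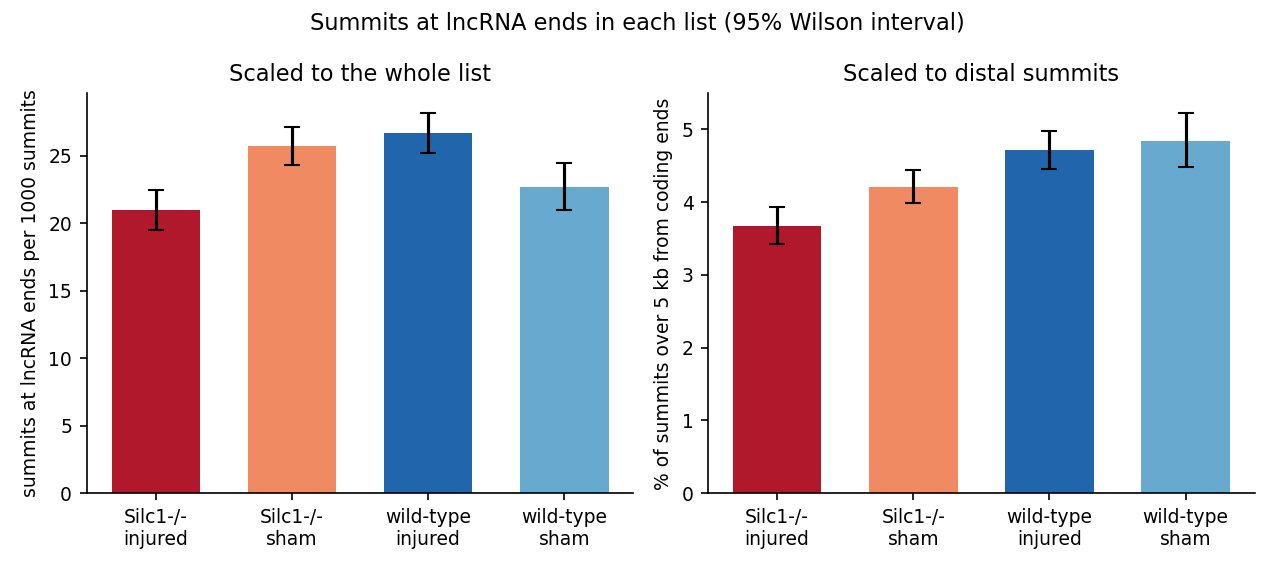
Summits at lncRNA ends in each list, per 1000 summits (left) and as a percent of summits over 5 kb from coding gene ends (right); bars are the values of 1 list each and error bars the 95% Wilson intervals. The Silc1-/- injured list was lowest in both panels (20.9 per 1000 and 3.67%), and the wild-type sham list, with 22.7 per 1000 on the left, had the highest share on the right, 4.84%.

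At the level of genes, 693 lncRNA genes had a member in Silc1-/- injured, 1130 in Silc1-/- sham, 1063 in wild-type injured and 568 in wild-type sham. Of the 10825 lncRNA genes with an end over 5 kb from coding ends, 15.1% had a member in any list. Most of these genes had 1 summit per list, and no gene had more than 4 in 1 list.

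The summits gathered at the starts of lncRNA genes. Strand was known for 1275 of the 1647 genes, and for these the nearer end was the 5′ end in 73.7% of summits (72.1 to 75.3). By list it was 72.8% in Silc1-/- injured, 72.2% in Silc1-/- sham, 72.8% in wild-type injured and 79.2% in wild-type sham. Of the summits nearest a 5′ end, 47.0% (45.0 to 49.1) lay within 200 bp of it and the median distance was 232 bp. Of those nearest a 3′ end, 13.2% (10.98 to 15.7) lay within 200 bp and the median distance was 530 bp. The rule treats both ends alike, so this asymmetry is not set by it.

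Among eligible 5′ ends, a summit was present at 5.63% in Silc1-/- injured, 9.11% in Silc1-/- sham, 8.74% in wild-type injured and 5.21% in wild-type sham. Among eligible 3′ ends the shares were 2.21%, 3.68%, 3.38% and 1.51% in the same order of lists. Across lists, 3.13% of 5′ ends (2.74 to 3.56) and 0.613% of 3′ ends (0.460 to 0.816) had a summit in every list. In every list the share was larger at starts than at 3′ ends.

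**Figure D2:**
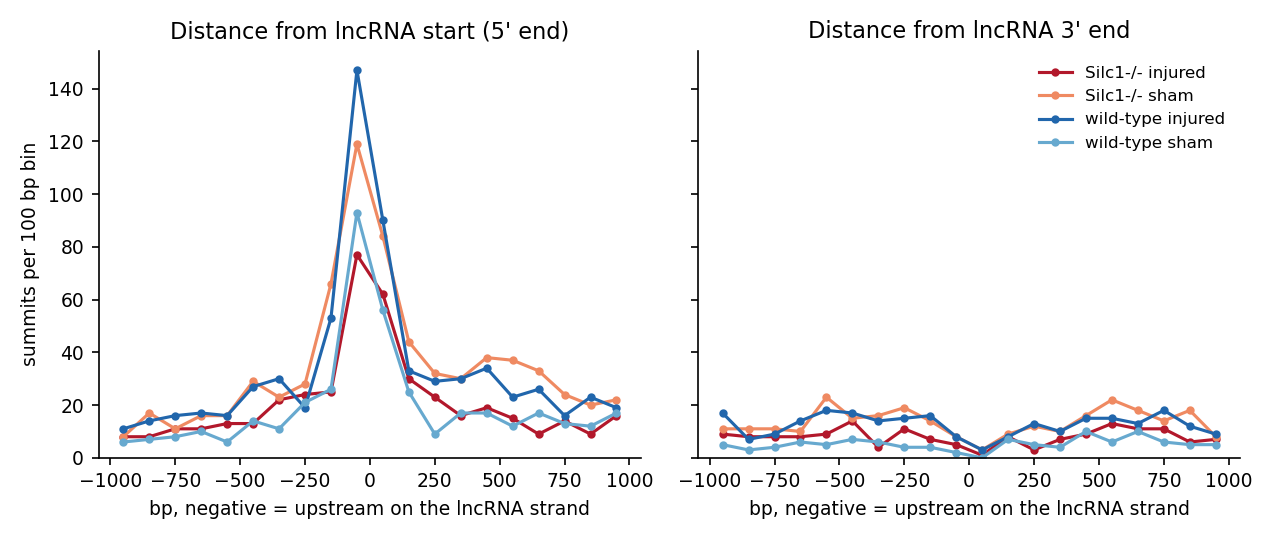
Number of member summits per 100 bp bin by distance from the lncRNA 5′ end (left) and 3′ end (right), 1 line per list; negative distances are upstream on the strand of the lncRNA. The bin just upstream of the start was the highest in each list, with 77 summits in Silc1-/- injured, 119 in Silc1-/- sham, 147 in wild-type injured and 93 in wild-type sham, and no such peak stood at the 3′ end.

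Summits were joined within 200 bp into loci, so that lists could be compared site by site. The 1976 loci at lncRNA ends were in 1 list in 51.7% of cases (49.5 to 53.9) and in all 4 lists in 16.3% (14.7 to 17.99). Loci at coding gene ends were in all 4 lists in 46.0% of cases (45.3 to 46.8), and the other distal loci in 9.83% (9.56 to 10.1). The lncRNA ends lay between these sets, with counting intervals that did not overlap either.

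**Figure D3:**
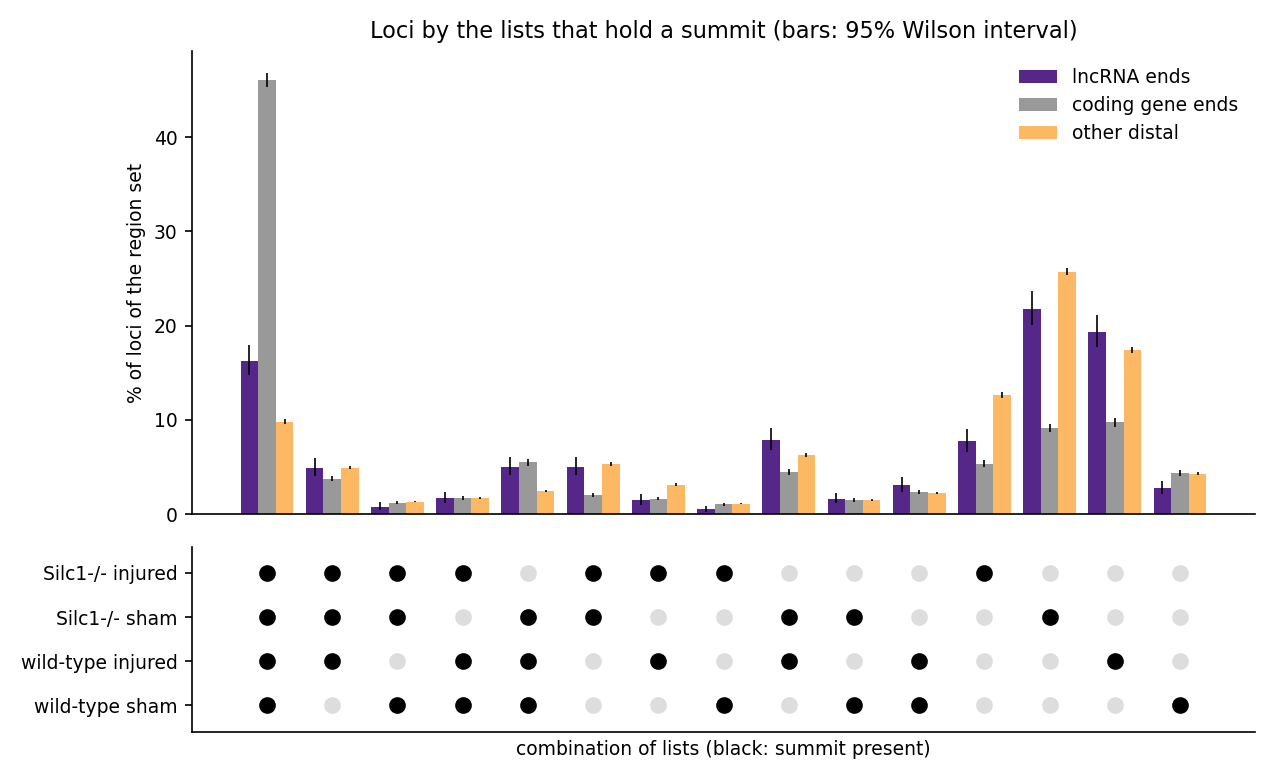
Percent of loci of each region set by the combination of lists that hold a summit (dots under the bars, black where present), for lncRNA ends, coding gene ends and other distal loci, with 95% Wilson intervals. Loci in all 4 lists made up 16.3% at lncRNA ends and 46.0% at coding gene ends, and loci in Silc1-/- sham alone 21.8% at lncRNA ends.

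Between injured and sham, 226 of the 1478 Silc1-/- loci at lncRNA ends were in the injured list and not the sham list (15.3%, 13.5 to 17.2), against 20.8% of all autosomal loci of these lists. In the other direction, 718 were in sham and not in injured (48.6%, 46.0 to 51.1), against 42% of all loci. In wild type, 665 of 1293 were in the injured list and not the sham list (51.4%, 48.7 to 54.1), against 46.5% of all loci, and 112 were in sham and not in injured (8.66%, 7.25 to 10.3), against 12.9%. The lncRNA ends followed the direction of all loci in both genotypes. The share found in the longer list alone was larger at lncRNA ends than over all loci, with counting intervals that did not hold the value of all loci.

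Between genotypes after injury, 278 of 1459 loci were in Silc1-/- and not in wild type (19.1%, 17.1 to 21.1), against 23.9% of all loci, and 699 were in wild type and not in Silc1-/- (47.9%, 45.4 to 50.5), against 38.4%. After sham operation, 783 of 1411 were in Silc1-/- and not in wild type (55.5%, 52.9 to 58.1), against 51.8% of all loci, and 159 were in wild type and not in Silc1-/- (11.3%, 9.72 to 13.0), against 13.4%. The genome-wide shares hold many loci at coding ends, where sharing was higher. Set against the other distal loci alone, the share in Silc1-/- sham and not in Silc1-/- injured was 48.6% at lncRNA ends and 47.3% elsewhere, a value inside the counting interval. The share in wild-type injured and not in wild-type sham was 51.4% at lncRNA ends and 56.5% elsewhere. The share in wild-type injured and not in Silc1-/- injured was 47.9% at lncRNA ends and 41.5% elsewhere, and that in Silc1-/- sham and not in wild-type sham was 55.5% and 63.3%. With this background, the sites that Silc1-/- injured lacked relative to wild-type injured were the 1 class of these 4 that stayed above it beyond counting error, and both classes missing from wild-type sham lay below it.

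In each pair of lists, the members of the shorter list were shared more often than those of the longer one. Of the Silc1-/- injured members, 68.1% had a Silc1-/- sham summit within 200 bp, 61.6% a wild-type injured one and 48.5% a wild-type sham one. Of the Silc1-/- sham members, 41.1% were shared with Silc1-/- injured, 52.1% with wild-type injured and 35.4% with wild-type sham. Of the wild-type injured members, 39.1% were shared with Silc1-/- injured, 55.5% with Silc1-/- sham and 42.7% with wild-type sham. Of the wild-type sham members, 58.6% were shared with Silc1-/- injured, 71.2% with Silc1-/- sham and 79.9% with wild-type injured. The wild-type lists departed from the order of list length. Wild-type sham shared more with wild-type injured than with the longer Silc1-/- sham list, and wild-type injured more with wild-type sham than with the longer Silc1-/- injured list. Wild-type sham did likewise at coding gene ends (85.4% against 83.0%) and at other distal summits (63.2% against 58.4%). Wild-type injured did so at coding gene ends (72.4% against 69.1%) but not at other distal summits (32.4% against 39.3%).

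Scores are the authors' values for each peak on a −log10 scale, depend on depth and are given to describe a list, not to compare lists. The median member score was 4.39 in Silc1-/- injured, 4.78 in Silc1-/- sham, 5.32 in wild-type injured and 5.59 in wild-type sham. At coding gene ends the medians were 7.80, 10.2, 14.3 and 11.2, and over the other distal summits they were 3.73, 4.29, 4.49 and 4.89, in the same order of lists. Within each list the lncRNA ends were intermediate. Members at loci found in all 4 lists had medians of 7.62, 10.9, 14.7 and 8.65, against 3.06, 3.55, 3.82 and 3.48 for members in loci of that list alone.

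The lncRNA starts open in every list were rich in CG dinucleotides. A window was called CpG-rich when its observed over expected CpG ratio was at least 0.6. This held for 52.9% (46.4 to 59.4) of the 221 starts of genes with a summit in all 4 lists, 16.5% (11.2 to 23.8) of those in 3 lists, 10.0% (6.496 to 15.1) in 2 lists, 8.22% (5.85 to 11.4) in 1 list and 3.87% (3.41 to 4.38) of the 6129 eligible starts with no summit. Over all coding starts of the table it was 49.7%. The median GC content was 57.3% in the genes of all 4 lists and 46.7% in those of no list. The share was higher at each step in the number of lists, with overlapping intervals among 1, 2 and 3 lists.

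At equal CpG ratio, fewer of the lncRNA starts over 5 kb from coding ends than of the coding starts had a summit within 1 kb in every list. For ratios under 0.2 the shares were 0.959% (0.676 to 1.36) of lncRNA starts and 1.71% (1.33 to 2.18) of coding starts, and between 0.4 and 0.6 they were 4.71% and 40.3%. At ratios of 0.8 or more they were 46.9% (39.0 to 55.0) of 145 lncRNA starts and 81.6% (80.5 to 82.7) of 4843 coding starts. The order was the same in all 5 bins of the CpG ratio, and the intervals overlapped only in the lowest.

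**Figure D4:**
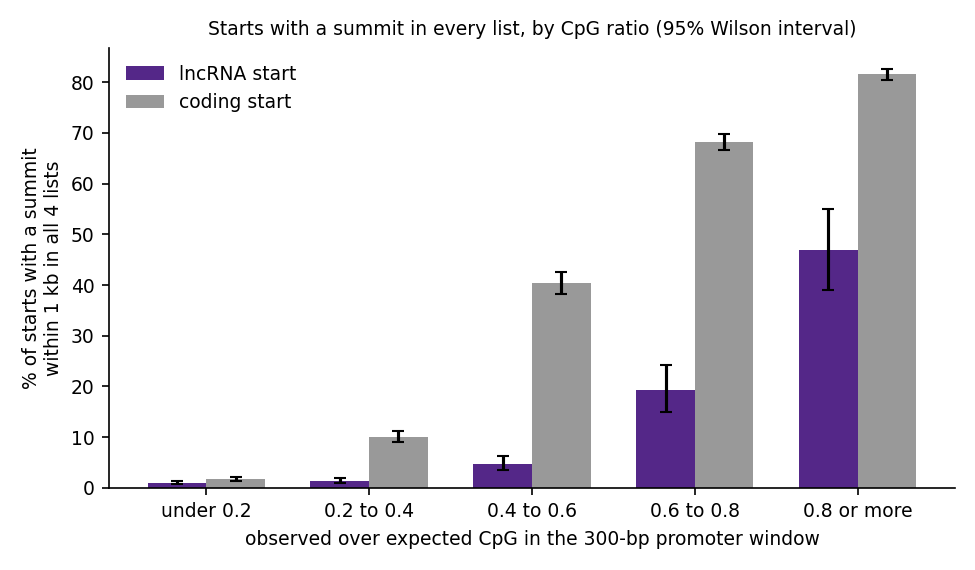
Percent of lncRNA starts and coding starts with a summit within 1 kb in all 4 lists (y axis), by observed over expected CpG of the promoter window (x axis, 5 bins), with 95% Wilson intervals. Both rise with the CpG ratio, to 46.9% of lncRNA starts and 81.6% of coding starts in the top bin.

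Other letters searched on both strands followed base composition in part. The AP-1 letters TGANTCA, bound by Fos and Jun family factors, were in 7.69% (4.86 to 11.97) of windows of genes in all 4 lists and 10.6% (9.87 to 11.4) of windows with no summit, beside 7.93% of all promoters. The CRE core TGACGT, bound by CREB and ATF factors, was in 11.8% (8.16 to 16.7) and 4.72% (4.21 to 5.27), beside 7.60% of all promoters. SOX-type letters, either ACAAAG or ATTGTT, were in 19% (14.4 to 24.7) and 37.0% (35.8 to 38.2), beside 27.2%. The ETS letters CCGGAAG were in 9.95% (6.67 to 14.6) and 2.61% (2.24 to 3.04), beside 9.11%. For the CTCF letters CCACNAG the shares were 19% and 14.05%, for CCCTC 66.1% and 54.9%, for the E-box letters CANNTG 70.1% and 81.4%, and for CCAAT 36.2% and 36.6%. The CG-containing letters were commoner and the AT-rich ones rarer in windows open in every list than in windows with no summit. These matches are letters, not shown binding.

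Annotation differed as well between genes in all 4 lists and genes with no summit. Curated transcript records made up 43.0% (37.8 to 48.4) of the 330 genes in all 4 lists, 23.0% (20.1 to 26.2) of the 738 genes in 1 list and 23.0% (22.2 to 23.9) of eligible genes with no summit. Overlap with a coding gene was found for 38.8% (33.7 to 44.1) of genes in all 4 lists and 31.8% (30.8 to 32.7) of those with none. A microRNA gene lay within 1 kb of 3.03% (1.65 to 5.49) and 0.860% (0.690 to 1.07), and a small nucleolar RNA gene within 1 kb of 2.73% (1.44 to 5.10) and 0.914% (0.739 to 1.13). For genes in 1, 2 and 3 lists, overlap with a coding gene was 35.1%, 35.5% and 32.4%. The microRNA shares were 1.63%, 0.880% and 0%, and the small nucleolar RNA shares 0.271%, 0.587% and 0.840%, in the same order. These shares did not rise at each step from no list to 4 lists. Member summits lay inside a coding gene in 32.5% of cases in Silc1-/- injured, 32.2% in Silc1-/- sham, 33.3% in wild-type injured and 35.4% in wild-type sham, and their median distance to the nearest coding end was 24.9 kb, 28.1 kb, 25.1 kb and 24.6 kb in the same order.

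Of 89 distinct lncRNA names with known functions or hosted RNAs, 27 had a member, 35 had an eligible end and no summit, 14 had no end over 5 kb from coding ends and 13 were not lncRNA symbols of these chromosomes in the table. The 27 were found in 15 cases in Silc1-/- injured, 24 in Silc1-/- sham, 21 in wild-type injured and 14 in wild-type sham. Over all 1647 member genes the counts were 693, 1130, 1063 and 568, so the lists ranked the same way. Silc1 was taken to be Gm9866, an equivalence that the files do not state, and was among the 35 with no summit, as were the imprinted Meg3 and H19, and Tug1. With no summit at Gm9866 in the wild-type lists either, the lists could not check the genotype.

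Among the abundant nuclear RNAs, Malat1 on chromosome 19, a component of nuclear speckles, had a member in every list. The highest scores were 16.1 in Silc1-/- injured, 13.3 in Silc1-/- sham, 29.0 in wild-type injured and 24.6 in wild-type sham. These members lay 816 to 970 bp from the Malat1 start. Each Silc1-/- list held another member nearer the start, at 3 bp in injured (score 2.22) and 28 bp in sham (4.44). Neat1, the scaffold of paraspeckles, had scores of 4.83 in Silc1-/- sham, 5.83 in wild-type injured and 3.38 in wild-type sham, 2 to 150 bp from an end, and the nearest Silc1-/- injured summit was 864 bp away. Norad, which binds Pumilio proteins, had 5.67, 17.6 and 4.20 in the same 3 lists, and the nearest Silc1-/- injured summit was 47697 bp away. Malat1 was found in every list, and Neat1 and Norad in all but Silc1-/- injured.

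Imprinted lncRNAs were also present. Kcnq1ot1, which silences neighbouring genes on the paternal chromosome, had summits within 116 bp of its start in all 4 lists, with scores of 7.31 in Silc1-/- injured, 10.4 in Silc1-/- sham, 18.7 in wild-type injured and 11.2 in wild-type sham. Peg13, in an intron of Trappc9, had 8.03 in Silc1-/- sham, 9.62 in wild-type injured and 7.23 in wild-type sham. Airn, antisense to Igf2r, had 2.92 in Silc1-/- sham and 5.92 in wild-type injured. Mirg, a microRNA host of the imprinted Dlk1-Dio3 region, had a single summit, scored 3.19 in Silc1-/- sham, at its 3′ end. None of Peg13, Airn and Mirg had a Silc1-/- injured summit, and the nearest lay 57371, 27168 and 62119 bp away. Airn and Mirg lacked a wild-type sham summit as well, with the nearest 28239 and 261126 bp away. Mirg also lacked a wild-type injured summit, with the nearest 62189 bp away.

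Chaserr, which restrains its neighbour Chd2, had scores of 32.5 in Silc1-/- injured, 56.4 in Silc1-/- sham, 74.5 in wild-type injured and 43.4 in wild-type sham. Oip5os1, also called Cyrano, which drives the destruction of miR-7, had 22.5, 34.7, 51.8 and 36.2 in the same order of lists, 15 to 38 bp from its start. Pvt1, next to Myc, had 3.09 in Silc1-/- injured, 6.40 in Silc1-/- sham and 5.19 in wild-type injured, with the nearest wild-type sham summit 50657 bp away. Miat, a nuclear RNA of neural tissue, had 1.57 in Silc1-/- injured and 2.55 in wild-type injured with the nearest sham summits 1148 bp away in Silc1-/- and 1186 bp in wild type. 2610035D17Rik had 5.80 in Silc1-/- injured, 12.7 in Silc1-/- sham, 14.3 in wild-type injured and 4.20 in wild-type sham. Of the antisense genes, Egfros inside Egfr had 2.48 in Silc1-/- injured, 2.42 in Silc1-/- sham and 4.20 in wild-type sham. Zeb2os had 3.02 in Silc1-/- sham and 11.1 in wild-type injured. A wild-type sham summit lay 280 bp from a Zeb2os member, and the nearest Silc1-/- injured summit 169468 bp away. Lncpint, a target of p53, had 1.81 in Silc1-/- sham and 4.72 in wild-type injured. The lowest score in any list was 1.30, close to the lower scores of Miat and Lncpint.

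Some member genes had a small nucleolar RNA, a guide for modification of ribosomal RNA, within 1 kb. Snhg5 had scores of 23.4 in Silc1-/- injured, 26.3 in Silc1-/- sham, 66.2 in wild-type injured and 37.2 in wild-type sham, 114 to 203 bp from its start. Snhg15 had 13.0, 21.2, 35.3 and 28.0 in the same order, and Dancr 17.7, 30.8, 41.03 and 17.8. Snhg17 had 3.73 in Silc1-/- injured, 11.8 in Silc1-/- sham and 4.91 in wild-type injured, and Snhg11 had 8.65 in Silc1-/- sham alone. Of the 15 member genes with a small nucleolar RNA within 1 kb, 9 had members in all 4 lists, against 330 of the 1647 member genes (20.04%). A further 84 eligible genes with a small nucleolar RNA within 1 kb had no summit in any list.

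Of the 25 member genes with a microRNA within 1 kb, 10 had members in all 4 lists, against the same 20.04% of member genes. Another 79 eligible genes with a microRNA within 1 kb had no summit in any list. The microRNA could lie on either strand, so not all of the 25 are hosts. Mirc35hg (chromosome 6, 30158640 to 30174125), whose microRNAs are printed above, had scores of 3.92 in Silc1-/- injured, 3.92 in Silc1-/- sham, 4.59 in wild-type injured and 4.58 in wild-type sham, at 76, 154, 4 and 50 bp from its start. Mir22hg had 36.6, 49.5, 74.3 and 39.0, with summits 61 to 66 bp from its start. Dleu2 had 3.31, 8.76, 25.7 and 8.01, at 83 to 103 bp. A330023F24Rik had 2.03, 10.3, 11.1 and 9.88. Snhg20, with Mir6516, had 4.24, 10.6, 11.96 and 4.93, at 15 to 51 bp from its start. Snhg4 on chromosome 18, with Mir1949 and Snora74a, had 3.73, 15.8, 21.9 and 19.5, at 57 to 71 bp from an end. The highest summits of all of these but those of A330023F24Rik stood within 200 bp of the host's end.

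Other microRNA hosts had members in 1 or 2 lists. Mir124a-1hg, host of the neuronal miR-124, had scores of 5.19 in Silc1-/- sham and 3.87 in wild-type injured. Mir9-3hg had 2.57 in wild-type injured alone. C130071C03Rik, the host of Mir9-2, had 1.38 in Silc1-/- injured at its 5′ end and 3.55 in Silc1-/- sham at its 3′ end, so that these lists did not share a site. Mir100hg, with miR-100, let-7a-2 and miR-125b-1, had 3.73 in Silc1-/- injured alone, and Mir99ahg had 4.97 in Silc1-/- sham alone. Carmn, host of the smooth muscle microRNAs miR-143 and miR-145, was assigned to Silc1-/- sham alone (score 16.2, 986 bp from its end), but summits of the other lists lay 61 to 75 bp from that one, just beyond the 1 kb limit.

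**Figure D5:**
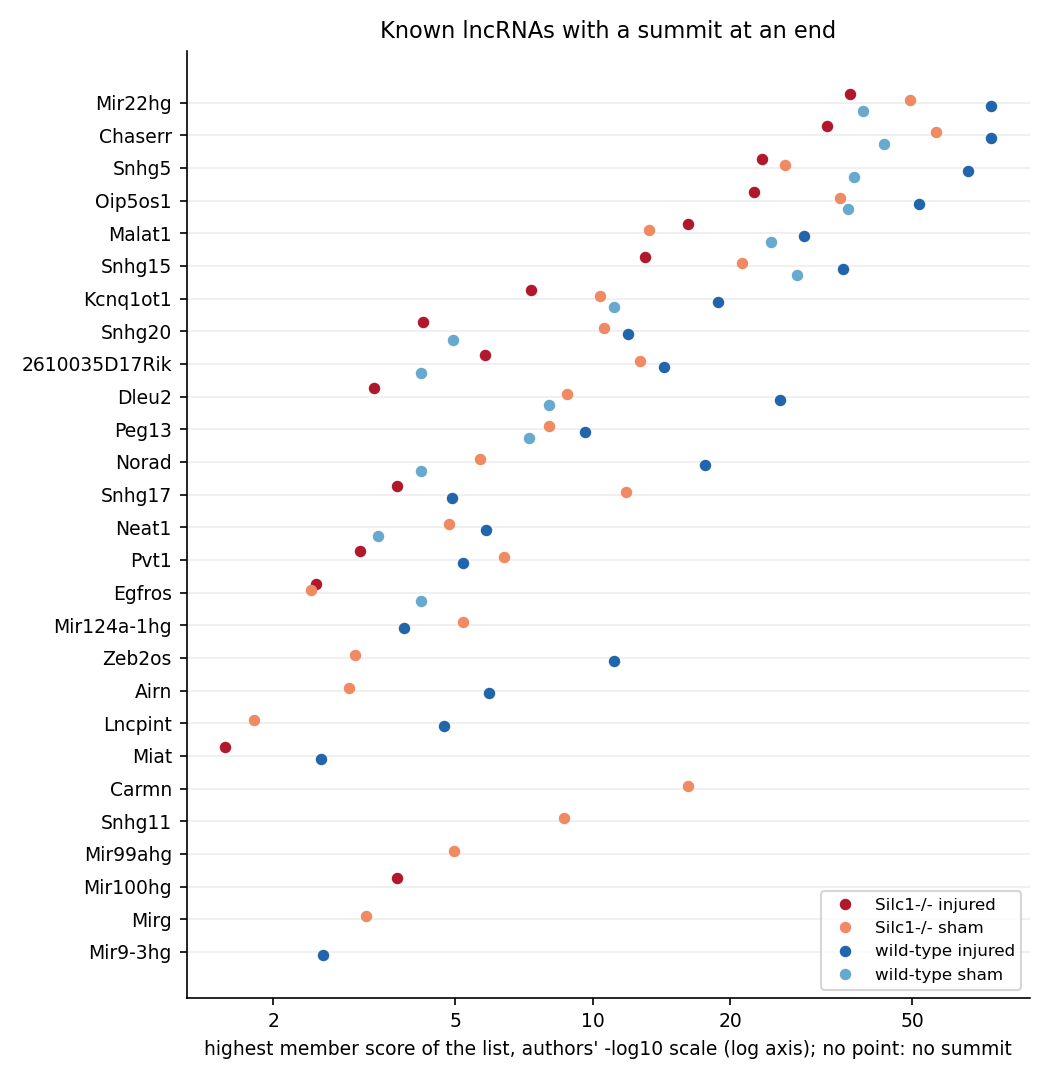
Highest member score in each list (x axis, authors' −log10 scale, logarithmic) for the 27 lncRNAs of the known list that had a member, 1 point per list; a missing point means no member. The top genes, such as Mir22hg and Chaserr, have points in all 4 lists, and those at the bottom have 1.

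The lncRNA genes with the highest scores in all 4 lists were led by Gm41530 (chromosome 17, 13655846 to 13665688), with 171 in Silc1-/- injured, 116 in Silc1-/- sham, 187 in wild-type injured and 143 in wild-type sham, and its summits lay 828 to 844 bp from the start. AY036118, with 56.9, 93.3, 73.2 and 53.4 in the same order, lies on chromosome 17 as well. Summits in repeated sequence were not filtered out here, and whether the highest scores mark open chromatin was not tested. D130051D11Rik (chromosome 15, 85634596 to 85640524), 52775 bp from the Wnt7b gene of a secreted signalling protein, had 43.3, 44.8, 81.9 and 61.9, with summits 1 to 26 bp from its start. Gm40345, which overlaps Por, an electron-donating enzyme of the endoplasmic reticulum, had 38.6, 54.5, 78.5 and 47.9, 19 to 25 bp from its start. The other genes of this group were Gm40467, Gm51701, 6430590A07Rik, 1700003G18Rik, 1700012D14Rik, Gm41603, Mir22hg and Gm10433, with lowest scores over the lists between 35.0 and 69.2. Gm40467 and AY036118 had their highest summits beyond the 3′ end, 1700012D14Rik at an end of unknown strand and the rest at the 5′ end.

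Genes with members in both injured lists and in neither sham list numbered 30, and those in both sham lists alone 22. As loci, both injured lists alone made up 1.47% at lncRNA ends and 2.68% over all loci, and both sham lists alone 1.62% and 1.49%. Gm52339 (chromosome 18, 65106559 to 65119948), inside the ubiquitin ligase gene Nedd4l, had scores of 19.1 in Silc1-/- injured and 14.4 in wild-type injured, and the nearest sham summits were 18679 bp away in Silc1-/- and 232268 bp in wild type. 4930471G24Rik (chromosome 13, 47667550 to 47668393) had 5.80 in Silc1-/- injured and 4.49 in wild-type injured, and no sham summit lay closer than 127104 bp. Gm38579 and Gm46165 had Silc1-/- sham summits 140 and 842 bp from their members, closer than the 1 kb that the rule allows from a gene end.

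Of the genes in both sham lists alone, 1700025N23Rik (chromosome 6, 39063879 to 39067586), inside the thromboxane synthase gene Tbxas1, had scores of 11.2 in Silc1-/- sham and 6.33 in wild-type sham, with the nearest injured summits 51125 bp away in Silc1-/- and 50851 bp in wild type. Gm30270, inside Tspan12, had 5.67 in Silc1-/- sham and 4.89 in wild-type sham, with none closer than 97116 bp. Gm14488, 9330188P03Rik and Gm15870 had injured summits 34 to 248 bp from their members. In each class, genes with a clear gap to the other lists stood beside genes that a neighbouring summit just missed.

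Genes in both Silc1-/- lists alone numbered 74, and those in both wild-type lists alone 46. As loci, the Silc1-/- pair alone made up 5.01% at lncRNA ends and 4.40% over all loci, and the wild-type pair alone 3.09% and 2.39%. Gm10578, inside the transcription factor gene Ebf3, had 11.3 in Silc1-/- injured and 11.2 in Silc1-/- sham, but wild-type summits lay 295 bp away after injury and 249 bp after sham operation. Gm46796 (chromosome 3, 6107017 to 6115915) had 12.3 and 10.4, with no wild-type summit closer than 173579 bp. Gm31344 had 5.80 and 7.16, with none closer than 39716 bp. Gm12708 (chromosome 4, 95193304 to 95209734) is 141082 bp from Jun, an AP-1 subunit that rises in sensory neurons after axon injury. Gm12708 had 15.2 in wild-type injured and 7.86 in wild-type sham, 70 and 102 bp from its start, with the nearest Silc1-/- summits 31702 bp away after injury and 22191 bp after sham operation. Gm14040 had 11.6 and 5.59, with the nearest Silc1-/- summit 59506 bp away.

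Of the genes in 3 lists, 108 lacked wild-type sham, 100 lacked Silc1-/- injured, 17 lacked Silc1-/- sham and 13 lacked wild-type injured. Loci that lacked wild-type sham alone made up 4.91% at lncRNA ends and 4.69% over all loci, and those that lacked Silc1-/- injured alone 5.01% and 3.43%. Loci that lacked Silc1-/- sham alone made up 1.72% and 1.68%, and those that lacked wild-type injured alone 0.810% and 1.29%, so the lists fell in nearly the same order over all loci. Gm40716 (chromosome 10, 80471409 to 80475380), 19526 bp from the transcription factor gene Onecut3, had scores of 10.8 in Silc1-/- sham, 26.5 in wild-type injured and 14.5 in wild-type sham, 48 to 96 bp from its start, and the nearest Silc1-/- injured summit was 29036 bp away. 4930447M23Rik had 9.55, 11.6 and 19.5 at the same base, 469 bp from its start. Gm39056 (chromosome 7, 99500464 to 99505945) had 9.74 in Silc1-/- injured, 18.6 in Silc1-/- sham and 13.4 in wild-type injured, 57 to 69 bp from its start, with the nearest wild-type sham summit 16718 bp away. 4930478P22Rik, 21103 bp from Hmx1, a homeobox gene of sensory ganglia, had 10.7, 8.78 and 14.3 in the same 3 lists, with the nearest wild-type sham summit 82518 bp away. These summits stood at nearly the same base in the lists that had them.

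Genes of a single list numbered 107 in Silc1-/- injured, 328 in Silc1-/- sham, 277 in wild-type injured and 26 in wild-type sham. As loci of that list alone, these classes made up 7.74%, 21.8%, 19.4% and 2.73% at lncRNA ends, against 10.6%, 21.4%, 16.1% and 4.30% over all loci, in the same order of lists. No summit of another list lay within 10 kb for 62 of the 107, 210 of the 328, 139 of the 277 and 8 of the 26. The matching shares over all loci were not computed, so these counts cannot be called particular to lncRNA ends. Gm33458, with a score of 163 in Silc1-/- injured, and Gm52195, with 97.8 in wild-type injured, had summits of other lists 78 and 293 bp away, as did Unc45bos, with 33.2 in wild-type sham, at 186 bp. Gm51914 (chromosome 11, 86613440 to 86620442), inside Vmp1, an autophagy gene, had 24.2 in wild-type injured, with the nearest summit of another list 10466 bp away. Gm33449, 28484 bp from the potassium channel gene Kcna5, had 12.4 in Silc1-/- sham, with the nearest 6043 bp away. Of the 12 genes with the highest scores among genes of a single list, 3 per list, 8 had a summit of another list within 300 bp.

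At the limits of the rule, 53 summits of Silc1-/- injured, 76 of Silc1-/- sham, 78 of wild-type injured and 39 of wild-type sham lay 900 to 1000 bp from the nearest lncRNA end, and 56, 92, 81 and 51 distal summits lay 1000 to 1100 bp away. Members up to 500 bp beyond the 5 kb limit from coding ends numbered 13, 21, 27 and 12, and 16, 23, 28 and 22 summits missed it by up to 500 bp. In every list more summits lay just outside each limit than just inside it.

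Markers of cell types were checked as summits within 1 kb of an end of the coding gene. Of 22 sensory neuron genes, 10 had a summit in Silc1-/- injured, 15 in Silc1-/- sham, 12 in wild-type injured and 10 in wild-type sham. Of 10 Schwann cell and satellite glia genes it was 2, 4, 5 and 2, of 8 macrophage genes 0, 0, 1 and 0, of 5 endothelial genes 0, 0, 3 and 1, and of 5 skeletal muscle genes 3, 2, 2 and 2. Neuron and glia genes had the higher counts in the longer lists, and their part in the lncRNA results was not tested.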

How the data were processed

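Chromatin accessibility was measured by ATAC-seq in 12 libraries, and the authors deposited 1 summit list per group of 3 libraries. The submitters' processing notes name Bowtie2, MACS2 and the mm10 build. Versions, read filters, a transposase shift, which would move summits by a few bases, and pooling of the 3 libraries are not stated there. The authors' deposited lines hold a summit position and a −log10 score, whose base quantity (p or q) is not stated. Read depth is not known from the lists, and both the number of summits and the scores depend on it.

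Coordinates count from 1. The gene table was RefSeq's for GRCm38.p6, and strand was read from its promoter windows. Summits of all lists within 200 bp were joined into loci. Other distal summits are those over 5 kb from coding ends and over 1 kb from lncRNA ends. Shares carry 95% Wilson intervals, which cover counting error only. With 1 list per group no test between groups was made. Groups came from the genotype and treatment labels.

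Genes named were, by lower score over the lists that hold them, 12 in all 4 lists, 5 in each pair of lists of 1 genotype or treatment, 3 in each single list and 3 in each set of 3 lists, of which the text gives a part and 1 is not reported here, and members of a list of known lncRNAs. Host genes of small RNAs, C130071C03Rik and the printed promoters were chosen after their values were seen. The members and lists were chosen with earlier results of these data known.

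The rule and the joining were tested on simulated data: all 1200 simulated summits were placed as by a direct search, and all 1500 planted loci were recovered. The planted loci stood far apart, with summits moved by less than the joining distance. Their recovery therefore checks the code and not the joining of summits that lie close together. Alternatives were other windows, score limits, list lengths, denominators and gene records. Python 3.11.15, numpy 2.4.6, pandas 2.3.3, scipy 1.17.1 and matplotlib 3.10.9 were used.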

Additional observations from a re-analysis of the deposited data

Results flagged for a closer look

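Injured over sham, the count of summits at lncRNA ends per list summit had a ratio of 0.815 in Silc1-/- and 1.18 in wild type. The 2 values lie on opposite sides of 1. Silc1-/- over wild type, the ratio was 0.786 after injury and 1.13 after sham operation, which are the same 4 lists set side by side the other way. Each group has 1 list, so the difference between these ratios was not tested. The total list lengths moved in the same directions, with injured over sham at 0.741 in Silc1-/- and 1.61 in wild type. With each list trimmed to the same length, the ratios of injured over sham were 0.814 in Silc1-/- and 1.18 in wild type, and those of Silc1-/- over wild type 0.783 after injury and 1.13 after sham operation.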

How the results depend on the processing

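No paired analysis was possible because each group has 1 list, and for the same reason no replicate could be left out. The 4 ratios of scaled counts were recomputed under 13 alternatives each, of which equal list lengths together with the distal denominator was chosen after seeing the data. Over these, injured over sham lay between 0.691 and 0.872 in Silc1-/- and between 0.972 and 1.39 in wild type, and Silc1-/- over wild type lay between 0.637 and 0.825 after injury and between 0.869 and 1.28 after sham operation. With distal summits as denominator, injured over sham in wild type turned to 0.972 and Silc1-/- over wild type after sham operation to 0.869, and with curated gene records alone the sham ratio turned to 0.981. Curated records also brought injured over sham in wild type to 1.05. Scores of at least 10 moved injured over sham to 0.691 in Silc1-/- and 1.39 in wild type, and Silc1-/- over wild type to 0.637 after injury and 1.28 after sham operation. Equal list lengths with the distal denominator moved Silc1-/- over wild type to 0.711 after injury and 1.02 after sham operation, and brought injured over sham in wild type back above 1, to 1.14. The causes of these shifts were not tested.

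Loci in all 4 lists numbered 322 as reported, 169 when joined within 50 bp, 182 with scores of at least 5 and 81 with scores of at least 10. With scores of at least 5, 12 loci were in both injured lists alone, 5 in both sham lists alone, 27 in the Silc1-/- pair alone and 40 in the wild-type pair alone, and with scores of at least 10 these were 4, 1, 7 and 21. Joining within 50 bp gave 47 loci in both injured lists alone, joining within 1000 bp gave 20 in both sham lists alone, and equal list lengths gave 49 in both Silc1-/- lists alone.

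Genes in all 4 lists numbered 330 as reported, 214 with a 500 bp window, 588 with a 2500 bp window, 188 with scores of at least 5 and 89 with scores of at least 10. With a 2500 bp window, 74 genes were in both injured lists alone, 34 in both sham lists alone and 150 in both Silc1-/- lists alone, and a 500 bp window gave 47 for both Silc1-/- lists. Equal list lengths gave 41 for both Silc1-/- lists. With scores of at least 5, 10 genes were in both injured lists alone, 4 in both sham lists alone and 23 in both Silc1-/- lists alone, and with scores of at least 10 these were 4, 1 and 5, with 19 in both wild-type lists alone. Score limits and windows change which summits enter. Of the counts of single lists and of the other combinations, 41 stayed within 1.5 times and 69 did not.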

Other observations

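Some lncRNA genes of a single list stood far from every summit of the other lists. This choice, the highest-scoring genes with no summit of another list within 10 kb, was made after the values were seen. How often such gaps occur over all loci was not computed. In Silc1-/- injured, Gm52864 had a member with a score of 7.66 and the nearest summit of another list 13883 bp away, and Gm40182 a member with 6.55, 54 bp from its start, with the nearest 16575 bp away. In Silc1-/- sham, Gm33714, 66088 bp from the neuronal pentraxin gene Nptx2, had a member with 10.4 at 2 bp from its start, with the nearest 17606 bp away, and Gm13872, inside the glutamate transporter gene Slc1a2, had one with 11.2, with the nearest 63480 bp away. In wild-type injured, Mirt1 had a member with 11.0249 at 53 bp from its start, with the nearest 29600 bp away, and 5830432E09Rik, inside the phosphatase gene Ptpre, had one with 12.9, with the nearest 19890 bp away. In wild-type sham, Gm40056 had a member with 6.33, with the nearest 22163 bp away. None of these genes was seen in a second list, so no repeat of them exists in the data.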
